A study of Mus musculus with 8 samples.

Results

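A set of 10 genes out of 17364 in the deposited tables was followed, made up of the MAPK phosphatase genes Dusp1, Dusp2, Dusp3, Dusp6, Dusp10 and Dusp16, the kinase genes Map3k8 and Mapkapk2, and the mRNA decay factor genes Zfp36 and Zfp36l1. They were taken by gene symbol from all 8 libraries, and all 10 passed the filter on low counts that left 12462 genes. RNA sequencing of poly(A)-enriched RNA measured bone-marrow-derived macrophages (BMDMs), which are macrophages grown in culture from mouse marrow. One group of 4 libraries came from Sept2C111A mice, in which the allele name denotes replacement of a cysteine of septin 2 by alanine, and the other 4 came from wild-type mice. Septin 2 is a filament-forming GTPase of the cytoskeleton. The culture medium of both groups contained TNF-α (30 ng/ml, 24 h), so no untreated cells enter the comparison and every value below is a level under TNF-α. Strain, age, sex and number of mice behind each library were not given in the labels, so p-values measure only the spread between these libraries, which may be technical.

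TNF-α and other inflammatory signals switch on the MAP kinases ERK, JNK and p38 in macrophages. The kinase TPL2, made from Map3k8, feeds the ERK branch, and p38 activates the kinase MK2, made from Mapkapk2. Dual-specificity phosphatases remove the activating phosphates from MAP kinases and so end the signal. Tristetraprolin, made from Zfp36, and its relative from Zfp36l1 bind AU-rich elements in the 3′ untranslated regions of cytokine mRNAs and recruit the deadenylation machinery. MK2 phosphorylates tristetraprolin and lowers that activity, which ties the kinase, phosphatase and decay factor genes into one circuit.

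Totals ran from 19543958 to 21288493 expected counts per library, and no library was a copy of another. Sept2C111A libraries 2 and 3, left out together in 1 alternative fit below, had fewer genes above 0 than the rest (14875 and 14913, against 15264 to 15382). Their normalization factors were also lower (0.966 and 0.924, against 1.009 to 1.032). The edited gene, Septin2, averaged 188 ± 18.7 CPM in Sept2C111A libraries and 226 ± 7.43 CPM in wild-type libraries (SD, n = 4 each), a log2 fold change of -0.27 that was not called (edgeR adjusted p = 0.063). Its groups did not overlap (163 to 207 against 216 to 234 CPM), as for 16.9% of all tested genes. Of 16 alternative fits 3 gave Septin2 an adjusted p under 0.05, DESeq2 among them (0.019), and 13 did not. CPM are counts scaled to a common normalized library size, and genes below an adjusted p of 0.05 in the edgeR fit across all tested genes are termed called. The biological coefficient of variation was 0.138 among Sept2C111A libraries and 0.0603 among wild-type libraries. All 10 macrophage markers were tested, with summed levels of 21900 to 24100 CPM in Sept2C111A libraries and 24300 to 26000 CPM in wild-type libraries. Most of that sum was Lyz2, which averaged 12400 CPM in Sept2C111A and 14400 CPM in wild type. Of the 10, 5 had positive and 5 negative log2 fold changes, and unadjusted edgeR p-values lay under 0.05 for 7. DESeq2 called 3, voom 1 and edgeR 1, Fcgr1, which was higher (log2 fold change 1.18, edgeR adjusted p = 0.0011). Some stromal markers, collagen genes among them, were also abundant. The list summed to 4170 to 5160 CPM in Sept2C111A libraries and 5250 to 6800 CPM in wild-type libraries. Col1a1 and Col1a2 were highest, averaging 1540 CPM each in Sept2C111A and 2060 and 2000 CPM in wild type. Lum and Thy1 lay near the floor, averaging 0.617 and 0.179 CPM in Sept2C111A and 0.745 and 0.308 CPM in wild type. Of the 11 tested stromal genes 4 were called lower and 0 higher, a count that leaving out 1 library moved between 0 (wild-type library 1 or 3) and 9 (Sept2C111A library 4), and none of the 12 listed was at 0 in all libraries. Summed neutrophil markers reached at most 8.70 CPM in Sept2C111A libraries and 4.68 CPM in wild-type libraries, and dendritic cell markers at most 9.98 and 15.1 CPM, with 0 of 4 tested called in each list by edgeR, DESeq2 or voom. Unadjusted p-values lay under 0.05 for 1 neutrophil and 0 dendritic cell markers. Lymphocyte markers summed to 29.2 to 31.1 CPM in Sept2C111A libraries and 21.5 to 24.4 CPM in wild-type libraries, with 1 of 3 tested called, Cd4, which was higher. In bulk RNA, fewer cells of a type and less RNA per cell cannot be told apart, and the part of these other cells in the results below was not tested.

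Dusp16 and Mapkapk2 were lower in Sept2C111A libraries, and the other 8 of the 10 genes were not called. The 2 called genes compare with 6.46% of all tested genes called in either direction and 3.03% called lower. Unadjusted p-values under 0.05 were found for 3 of the 10 genes, the third being Dusp2, and for 24.8% of all tested genes. The log2 fold change was negative for 7 and positive for 3, with a median of -0.10, beside 48.2% negative and a median of 0.01 over all tested genes. The libraries of the 2 genotypes did not overlap for Dusp16 and Mapkapk2, as was the case for 16.9% of all tested genes.

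**Figure D1:**
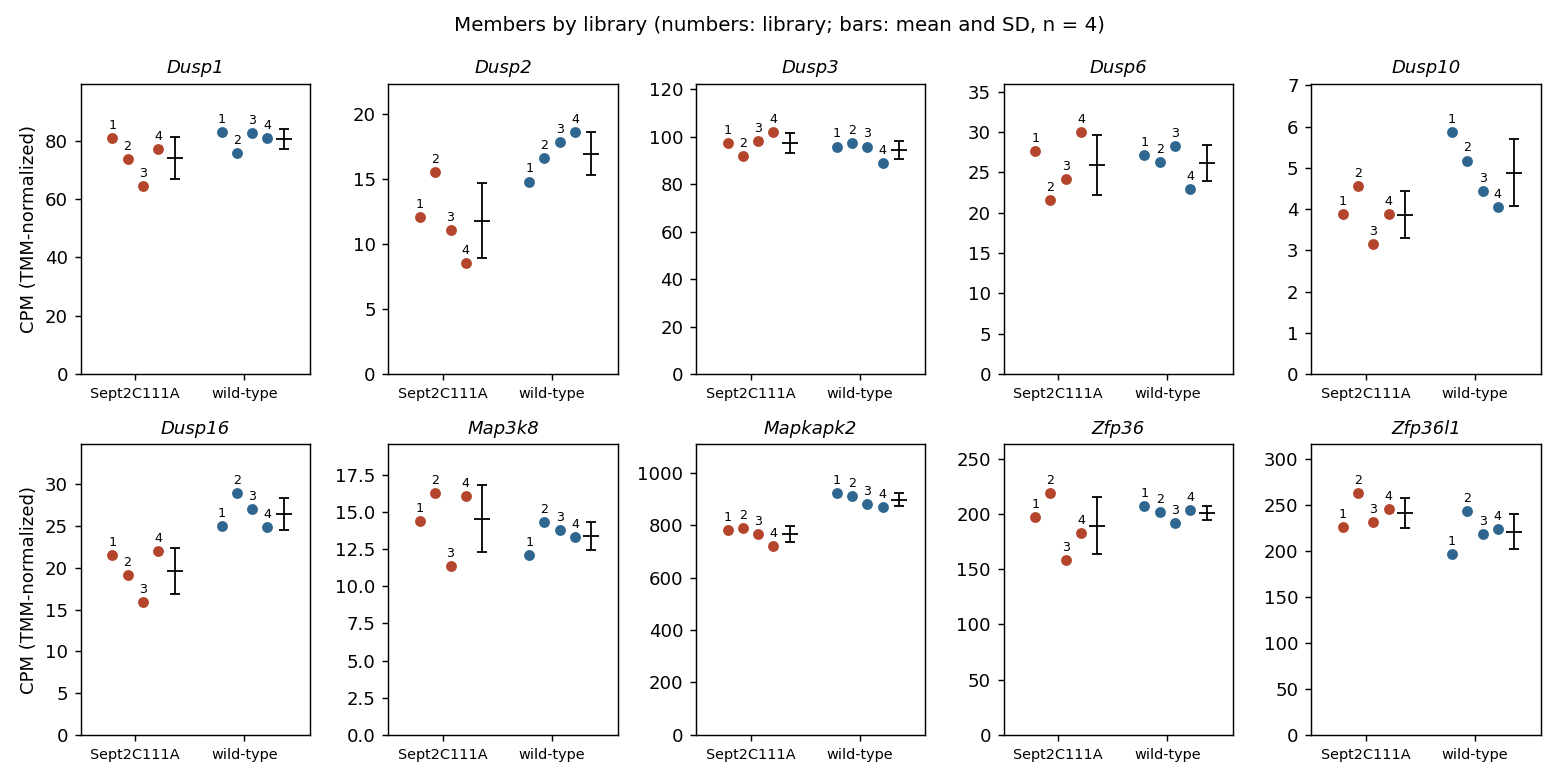
Level of each of the 10 genes in every library, in CPM on a linear axis of its own per gene, with Sept2C111A libraries left of wild-type libraries and bars for the mean and SD of 4 libraries. Dusp16 and Mapkapk2 show Sept2C111A points that all lie below the wild-type points, while the other 8 genes overlap.

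Dusp16 encodes MKP-7, a phosphatase that acts mainly on JNK and p38, and spans chr6:134715468-134807063 in RefSeq annotation of GRCm38. Its level was 21.5, 19.2, 15.9 and 22 CPM in Sept2C111A libraries 1 to 4, against 25, 29, 27 and 24.9 CPM in wild-type libraries 1 to 4. Every Sept2C111A library lay below every wild-type library, with library 3 the lowest of the 8. Its mean was 74.2% of wild type, at 19.7 ± 2.78 CPM in Sept2C111A and 26.5 ± 1.94 CPM in wild type (SD, n = 4 each). The log2 fold change was -0.43 (SE 0.10, edgeR adjusted p = 0.035), and the exact two-sided permutation p was 0.0286, the smallest that 4 against 4 libraries can give. Leaving out Sept2C111A library 2 or any 1 of the wild-type libraries ended the call (edgeR adjusted p 0.069 to 0.11), and without Sept2C111A libraries 2 and 3 together the log2 fold change was -0.28 with an edgeR adjusted p of 0.098.

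Dusp10, which encodes MKP-5 and has the same preferred substrates, was the least expressed of the 10 genes, with 62 to 86 reads in Sept2C111A libraries and 85 to 123 in wild-type libraries. It measured 3.88, 4.56, 3.15 and 3.88 CPM in Sept2C111A libraries and 5.87, 5.18, 4.43 and 4.06 CPM in wild-type libraries. The groups overlapped, and the log2 fold change of -0.34 (SE 0.16) was not called (edgeR adjusted p = 0.21). Dusp10 overlaps 1700056E22Rik on the opposite strand, a gene with too few reads to pass the filter, and without strand the reads of the overlap cannot be told apart.

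Dusp1 and Dusp2 encode nuclear phosphatases that are induced within minutes to hours of macrophage activation, and Dusp1 is a main brake on p38 after inflammatory stimuli. Dusp1 stood at 81, 73.6, 64.3 and 77.1 CPM in Sept2C111A libraries, against 82.9, 75.6, 82.5 and 81 CPM in wild-type libraries. Apart from Sept2C111A library 3 the groups lay close together, and the log2 fold change of -0.12 (SE 0.076) was not called (edgeR adjusted p = 0.35). On the opposite strand Dusp1 overlaps Ergic1, which averaged 99.4 ± 10.2 CPM in Sept2C111A and 114 ± 2.94 CPM in wild type, with the same limit on strand.

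Dusp2, also named PAC-1, had 12.1, 15.5, 11.1 and 8.51 CPM in Sept2C111A libraries, against 14.8, 16.6, 17.8 and 18.6 CPM in wild-type libraries. Sept2C111A library 2 exceeded wild-type library 1, and the remaining 3 mutant libraries were lower than every wild-type one. The mean was 69.6% of wild type and the log2 fold change -0.52 (SE 0.15), which was larger in size than that of Dusp16 but missed the threshold (edgeR adjusted p = 0.067). DESeq2 gave an adjusted p of 0.021 for it, and leaving out Sept2C111A library 2 gave a log2 fold change of -0.68 with an edgeR adjusted p of 0.029. Without Sept2C111A library 4 the values were -0.39 and 0.049, and without Sept2C111A libraries 2 and 3 together they were -0.72 and 0.02. Only these 4 of the 16 alternatives called Dusp2. The adjusted p was 0.055 with voom, and 0.11 to 0.18 in edgeR when any 1 wild-type library was left out.

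Dusp6 encodes MKP-3, a cytoplasmic phosphatase specific for ERK, and its transcription follows ERK activity in many cells. Dusp6 ranged from 21.6 to 30 CPM in Sept2C111A libraries and from 23 to 28.3 CPM in wild-type libraries. The log2 fold change was -0.02 (SE 0.11, edgeR adjusted p = 0.94), and its sign turned in 5 of 16 alternatives, with values up to 0.14. Dusp3 encodes VHR, an atypical phosphatase without a MAP kinase docking domain that can act on ERK and JNK. Dusp3 was the most abundant of the 6 phosphatase transcripts in CPM, with 92 to 102 CPM in Sept2C111A libraries and 89 to 97.4 CPM in wild-type libraries. The groups overlapped at a log2 fold change of 0.04 (SE 0.059, edgeR adjusted p = 0.71).

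The 10 typical MAPK phosphatases, which share a MAP kinase docking domain and of which 5 are among the 10 genes, were then set beside 10 atypical phosphatases, Dusp3 among them. This grouping was made after values had been seen, and it carries no test. All 10 typical phosphatases had negative log2 fold changes with a median of -0.38, beside 48.2% negative over all tested genes. Some lay near 0, with -0.02 for Dusp6, -0.07 for Dusp7 and -0.12 for Dusp1. Of the 10, 2 were called lower, Dusp16 and Dusp5, beside 3.03% of all tested genes. That count was 4 with DESeq2, 6 when Sept2C111A library 4 was left out, 1 when Sept2C111A library 2 or 3 or wild-type library 2 was, and 0 when wild-type library 1, 3 or 4 was. Of the atypical phosphatases 3 were negative and 7 positive, with a median of 0.03, and 0 were called by edgeR, DESeq2 or voom. Dusp19 alone among them had an unadjusted p under 0.05 (log2 fold change 0.43, edgeR adjusted p = 0.18). The number of negative typical phosphatases was 8 to 10 over the 16 alternatives, the lowest without Sept2C111A libraries 2 and 3 together, where Dusp6 had 0.14 and Dusp7 lay at 0.

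Dusp5 encodes a nuclear phosphatase specific for ERK. It had 7.38, 5.67, 4.42 and 6.19 CPM in Sept2C111A libraries, against 10.4, 7.7, 9.57 and 8.64 CPM in wild-type libraries, again without overlap. Its log2 fold change was -0.61 (SE 0.15, edgeR adjusted p = 0.04), and the call ended when Sept2C111A library 2 or 3 or wild-type library 1, 3 or 4 was left out (edgeR adjusted p 0.057 to 0.12). The 4 nuclear inducible phosphatases had a median log2 fold change of -0.57, the 3 cytoplasmic ERK phosphatases -0.07 and the 3 that prefer JNK and p38 -0.34. Dusp4 had a log2 fold change of -0.61 with wide spread between Sept2C111A libraries (4.68 to 10.2 CPM, against 8.93 to 12.5 CPM in wild type), and it was not called (edgeR adjusted p = 0.12). Dusp8 had -0.34 (edgeR adjusted p = 0.063) and Dusp9, at under 1 CPM in every library, -1.11 (edgeR adjusted p = 0.065). In 7 of the 10 typical phosphatases Sept2C111A library 3 was the lowest of its group, a count whose share over all tested genes was not taken. Across the 17 other dual-specificity phosphatase genes tested, which hold slingshot phosphatases as well, 1 was lower, 0 were higher and the median was 0.01.

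**Figure D2:**
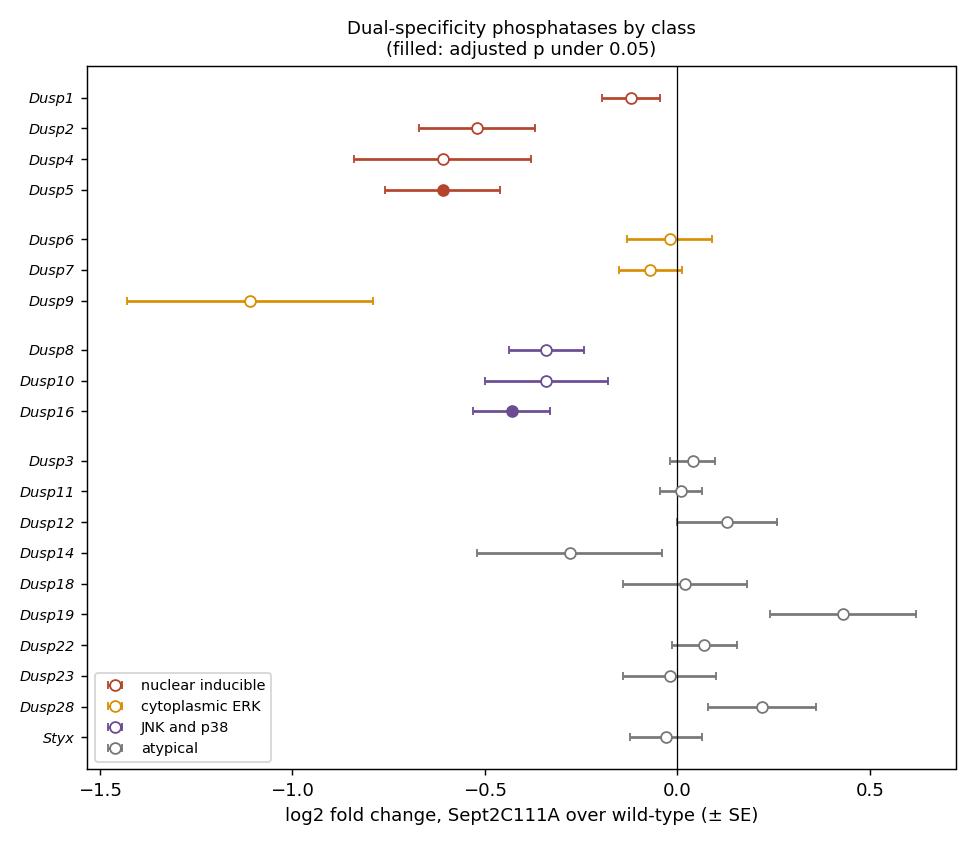
Log2 fold change of Sept2C111A over wild type for 20 dual-specificity phosphatase genes by class, with bars of 1 SE; filled points are called at an edgeR adjusted p under 0.05. The 10 typical MAPK phosphatases all lie below 0 and the atypical ones lie on both sides of it.

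The promoters of Dusp16 and Dusp5, which were called lower, and of Dusp1, which was not called, are shown to set the called phosphatase genes beside Dusp1, a gene known to be induced through CREB in macrophages. Each runs from 250 bases before to 50 bases after the RefSeq start on the GRCm38.p6 assembly, 5′ to 3′ on the strand of the gene. For Dusp16 the start in that table lies inside the annotated span of the gene, downstream of its outermost start. They span chr6:134792579-134792878 on the minus strand for Dusp16, chr19:53528895-53529194 on the plus strand for Dusp5 and chr17:26508423-26508722 on the minus strand for Dusp1. Capitals mark matches to 7 motifs searched on both strands, which were the cAMP response element TGACGTCA and its core TGACG (lying within it wherever the longer one matches), the AP-1 site TGANTCA, the EGR site GCGGGGGCG, TATAAA, the CArG box of serum response factor and the NF-κB consensus.
Dusp16: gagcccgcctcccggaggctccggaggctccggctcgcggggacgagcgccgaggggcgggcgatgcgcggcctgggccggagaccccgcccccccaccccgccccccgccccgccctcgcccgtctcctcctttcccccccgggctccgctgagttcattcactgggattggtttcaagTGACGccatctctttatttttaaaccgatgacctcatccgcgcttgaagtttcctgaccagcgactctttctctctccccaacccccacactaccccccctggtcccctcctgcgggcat
Dusp5: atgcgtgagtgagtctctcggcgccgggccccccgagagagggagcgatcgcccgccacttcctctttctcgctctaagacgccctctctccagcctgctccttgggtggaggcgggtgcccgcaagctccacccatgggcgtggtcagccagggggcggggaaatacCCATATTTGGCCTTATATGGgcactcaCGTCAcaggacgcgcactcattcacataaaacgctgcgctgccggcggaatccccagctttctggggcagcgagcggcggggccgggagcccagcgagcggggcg
Dusp1: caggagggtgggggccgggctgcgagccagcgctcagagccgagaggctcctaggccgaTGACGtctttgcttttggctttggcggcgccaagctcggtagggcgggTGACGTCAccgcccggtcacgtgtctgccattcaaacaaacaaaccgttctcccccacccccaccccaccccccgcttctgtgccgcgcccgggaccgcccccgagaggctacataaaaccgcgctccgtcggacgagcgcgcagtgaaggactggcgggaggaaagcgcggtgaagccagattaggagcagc

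Dusp16 held only the short TGACG, at 70 bases before the start, which 20.8% of 32851 promoters of this length hold. Dusp5 held a pair of adjoining CArG boxes beginning 82 and 72 bases before the start, a motif found in 1.63% of promoters, and 1 TGACG. Dusp1 held TGACGTCA at 143 bases before the start, which 1.79% of promoters hold. Dusp8, also not called, held it 2 times, at 107 and 63 bases before the start, with a log2 fold change of -0.34. The NF-κB consensus, present in 4.51% of promoters, had no match in these windows. A match describes the letters in the window and is not a measured binding site.

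Map3k8 encodes TPL2, the kinase that activates the ERK branch downstream of TNF-α. Map3k8 stood at 14.4, 16.3, 11.4 and 16.1 CPM in Sept2C111A libraries, against 12.1, 14.3, 13.8 and 13.3 CPM in wild-type libraries. Sept2C111A library 3 was the lowest of the 8 and the other 3 Sept2C111A libraries the highest, so that the groups overlapped, and the log2 fold change of 0.12 (SE 0.12) was not called (edgeR adjusted p = 0.54). Nfkb1 encodes p105, which holds TPL2 inactive and stabilises it. Nfkb1 averaged 220 ± 35.7 CPM in Sept2C111A and 277 ± 13.2 CPM in wild type (SD, n = 4 each) without overlap, at a log2 fold change of -0.33 that was not called (edgeR adjusted p = 0.09).

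Mapkapk2, at chr1:131053700-131097871, encodes MK2, the p38-activated kinase that phosphorylates tristetraprolin. It was the most abundant of the 10 genes, with 782, 789, 765 and 721 CPM in Sept2C111A libraries, against 923, 910, 882 and 869 CPM in wild-type libraries. No Sept2C111A library reached the lowest wild-type library. The mean was 764 ± 30.5 CPM in Sept2C111A and 896 ± 24.8 CPM in wild type (SD, n = 4 each), or 85.3% of wild type. The log2 fold change was -0.23 (SE 0.060, edgeR adjusted p = 0.047; exact two-sided permutation p = 0.0286, the smallest possible). It held its size at -0.25 to -0.20 over 16 alternatives, but the call was made in only 6 of them, and ended when Sept2C111A library 1, 2 or 3 or any 1 wild-type library was left out (edgeR adjusted p 0.053 to 0.16). With no filter on low counts the adjusted p was 0.077, and without the 20 most abundant genes 0.052.

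MK3, made from Mapkapk3, is the close relative of MK2 and shares its substrates. Mapkapk3 averaged 65.2 ± 6.58 CPM in Sept2C111A and 57 ± 4.13 CPM in wild type (SD, n = 4 each), at a log2 fold change of 0.20 that was not called (edgeR adjusted p = 0.18). The Mapkapk2 to Mapkapk3 ratio of CPM was 12.8, 11.2, 13.1 and 10.1 in Sept2C111A libraries, against 17, 14.6, 15.1 and 16.4 in wild-type libraries. The groups did not overlap and the mean log2 ratio was lower by a difference of -0.42 (exact two-sided permutation p = 0.0286, and 0.0572 when adjusted over the 2 ratios computed). This ratio was chosen after values had been seen, with Mapkapk2 already called lower. Its p-values do not cover that choice and are no independent evidence. It is not a ratio of protein or of molecules per cell.

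The promoter of Mapkapk2 is shown as that of the second called gene among the 10. It spans chr1:131097794-131098093 on the minus strand of GRCm38.p6, and its capitals mark the single match, TGACG at 11 bases after the start.
Mapkapk2: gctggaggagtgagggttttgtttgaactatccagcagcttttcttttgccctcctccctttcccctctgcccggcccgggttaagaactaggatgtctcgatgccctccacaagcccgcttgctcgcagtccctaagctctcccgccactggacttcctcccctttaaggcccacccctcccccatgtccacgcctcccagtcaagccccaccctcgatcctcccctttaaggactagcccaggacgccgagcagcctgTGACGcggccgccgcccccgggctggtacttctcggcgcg

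**Figure D3:**
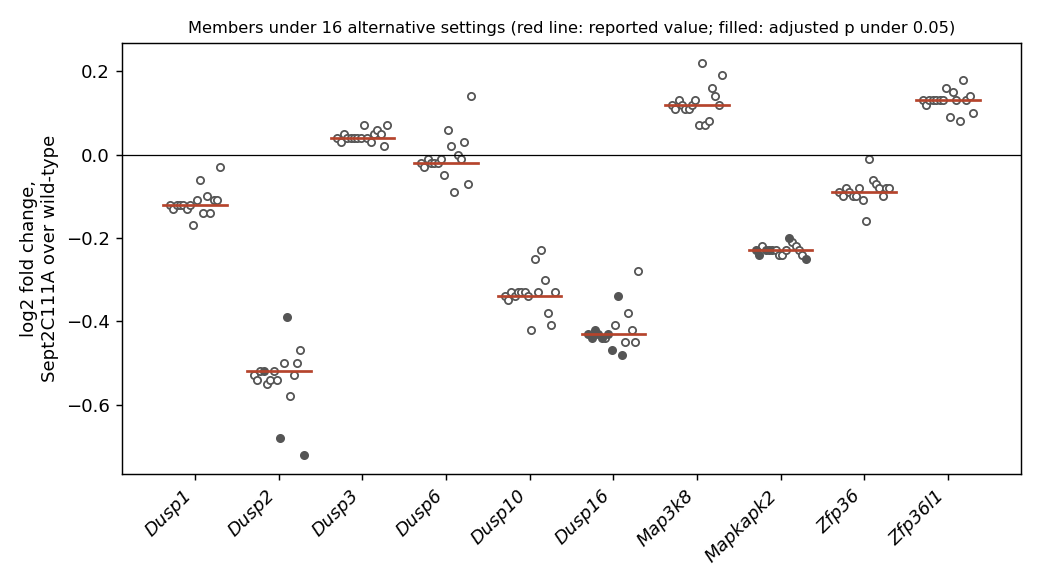
Log2 fold change of Sept2C111A over wild type for each of the 10 genes in the fit reported and in 16 alternative fits, with filled points where the edgeR, DESeq2 or voom adjusted p was under 0.05. Dusp16 and Mapkapk2 stay negative in all 16, with filled points in 9 and 6 of them, and Dusp2 has 4.

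Zfp36 encodes tristetraprolin, which shortens the lives of Tnf and other cytokine mRNAs. Zfp36 measured 197, 219, 158 and 183 CPM in Sept2C111A libraries, against 207, 202, 192 and 203 CPM in wild-type libraries. Wild-type libraries lay within a narrow band, while Sept2C111A libraries ran on both sides of it, and the log2 fold change of -0.09 (SE 0.090) was not called (edgeR adjusted p = 0.59). Over the 16 alternatives it ran from -0.16 to -0.01 and was called in none.

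Zfp36l1 encodes a relative of tristetraprolin with the same zinc finger type. Zfp36l1 measured 226, 263, 231 and 245 CPM in Sept2C111A libraries, against 197, 243, 218 and 224 CPM in wild-type libraries. The groups overlapped, and the log2 fold change of 0.13 (SE 0.077) was not called (edgeR adjusted p = 0.32). Zfp36l2, the further relative expressed in these cells, averaged 219 ± 30 CPM in Sept2C111A and 211 ± 16.1 CPM in wild type (SD, n = 4 each), with a log2 fold change of 0.06 (edgeR adjusted p = 0.76). The Zfp36 to Zfp36l1 ratio was 0.874, 0.835, 0.684 and 0.746 in Sept2C111A libraries, against 1.05, 0.833, 0.88 and 0.908 in wild-type libraries. The difference in mean log2 ratio of -0.23 was within the overlap of the groups (exact two-sided permutation p = 0.0857, raw and adjusted over the 2 ratios).

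The 3′ untranslated regions of these transcripts were searched for TATTTAT, the heptamer around which tristetraprolin sites are built, in the longest coding transcript of each gene. One 30-base window per gene is shown, as DNA of the GRCm38 build on the strand of the gene, for the phosphatase and decay factor genes that hold the heptamer and for Tnf, the classic target. Capitals mark the heptamers. The windows lie at chr17:26505870-26505899 (minus) for Dusp1, chr2:127338303-127338332 (plus) for Dusp2, chr7:28376958-28376987 (minus) for Zfp36, chr12:80108381-80108410 (minus) for Zfp36l1, chr17:84184866-84184895 (minus) for Zfp36l2 and chr17:35199678-35199707 (minus) for Tnf.
Dusp1: agtttttaccttTATTTATttttgtgtagg
Dusp2: aacagcactttaTATTTATatagaacattg
Zfp36: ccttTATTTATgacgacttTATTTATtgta
Zfp36l1: taattttgttcaTATTTATcgggatgacaa
Zfp36l2: ttgtccatactgTATTTATcgagtatgatg
Tnf: tTATTTATTATTTATTTATTATTTATTTAT

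Dusp1, Zfp36, Zfp36l1 and Zfp36l2 each held 3 heptamers, Dusp2 held 1 and Tnf held 8. The decay factor transcripts thus carry the letters that their own proteins bind, which describes the sequence and not a measured site. Among untranslated regions of like length, 1.28% held at least as many as Dusp1, 1.17% as many as Zfp36, 4.15% as many as Zfp36l1 and 15.7% as many as Dusp2, and 28% of 20534 genes held at least 1. Dusp16 and Mapkapk2, the called genes, held 0, as did Dusp3, Dusp6 and Dusp10, while another coding transcript of Dusp16 held 1 and another of Zfp36l1 held 0.

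The promoter of Zfp36 is shown as that of the decay factor with matches to both the EGR and the CArG motif. It spans chr7:28379179-28379478 on the minus strand of GRCm38.p6, with GCGGGGGCG at 105 bases before the start and a CArG box at 58 bases before it. The EGR letters are held by 2.91% of promoters.
Zfp36: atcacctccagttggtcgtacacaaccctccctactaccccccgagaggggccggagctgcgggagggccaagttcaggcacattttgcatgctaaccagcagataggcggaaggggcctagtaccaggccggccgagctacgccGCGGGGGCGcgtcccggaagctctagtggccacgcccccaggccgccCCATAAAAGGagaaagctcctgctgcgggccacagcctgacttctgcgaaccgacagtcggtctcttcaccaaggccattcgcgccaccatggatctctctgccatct

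Levels of different genes were compared per kilobase of the longest transcript. Mapkapk2 stood first, at 268 ± 10.7 CPM per kb in Sept2C111A and 314 ± 8.7 CPM per kb in wild type (SD, n = 4 each). Zfp36l1, Zfp36 and Zfp36l2 followed at 80.7, 67.8 and 62.1 CPM per kb in Sept2C111A and 73.7, 72 and 59.7 CPM per kb in wild type, and neighbours among them overlapped in their ranges over libraries, except Zfp36 and Zfp36l2 in wild type (68.8 to 74.2 against 53.8 to 65.2 CPM per kb). Dusp1 had 32 CPM per kb in Sept2C111A and 34.8 in wild type, and Dusp3 21.9 and 21.3. Both lay apart from their neighbours in the order. Dusp2 and Dusp6 stood at 7.3 and 9.25 CPM per kb in Sept2C111A and at 10.5 and 9.36 in wild type, with overlapping ranges in both groups. Map3k8 had 5.66 CPM per kb in Sept2C111A and 5.21 in wild type, and Dusp16 3.85 and 5.19, with Dusp10 last at 1.39 and 1.75. The range of Map3k8 overlapped that of Dusp2 in Sept2C111A. Dusp16 and Map3k8 did not differ beyond their spread in wild type, and their ranges did not overlap in Sept2C111A (3.12 to 4.31 against 4.44 to 6.34 CPM per kb). The order depended on the length used. With mean transcript length in place of the longest, Dusp16 stood above Map3k8 in Sept2C111A (8.56 against 7.97 CPM per kb) and in wild type (11.5 against 7.32), and Dusp6 above Dusp2 in wild type. Zfp36l1 then stood well above Zfp36, at 168 against 72 CPM per kb in Sept2C111A and 153 against 76.5 in wild type.

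**Figure D4:**
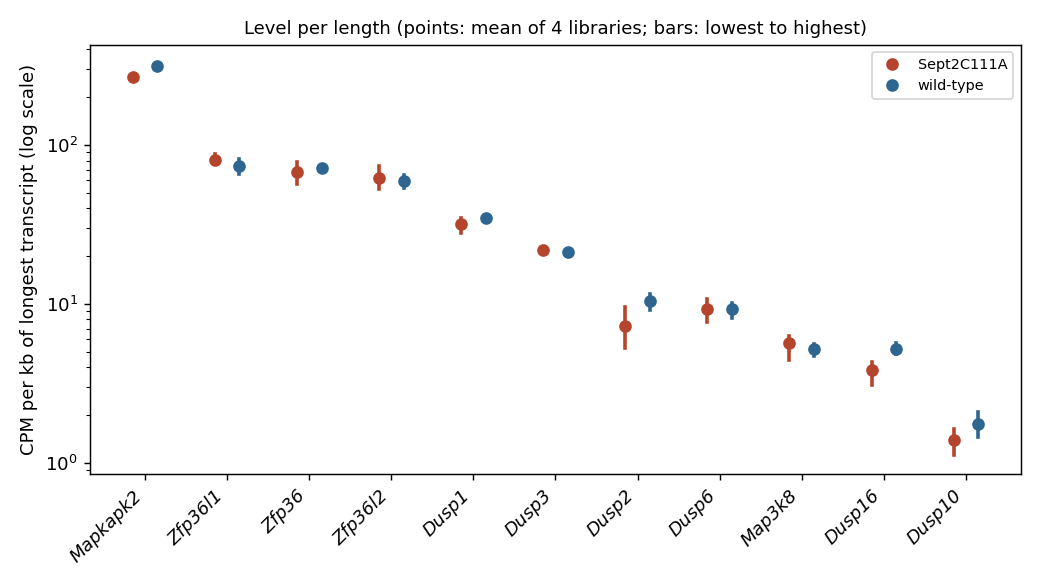
Level per kilobase of the longest transcript for the 10 genes and Zfp36l2 on a log axis, with a point for the mean of 4 libraries, a bar from the lowest to the highest library, and Sept2C111A left of wild type for each gene. Mapkapk2 lies near 300 CPM per kb, the decay factors between 53 and 88, and Dusp10 below all others.

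The libraries of the mutant varied more for these genes. The coefficient of variation was larger in Sept2C111A than in wild type for 8 of the 10, as for 79.1% of all tested genes. Sept2C111A library 3 was the lowest of all 8 libraries for 5 of the 10 genes, Dusp1, Dusp10, Dusp16, Map3k8 and Zfp36. That library also had the lowest normalization factor of the 8, at 0.924. The share of all tested genes lowest in it was not counted, so a trait of the whole library is not set apart. Over 8 libraries and the 9629 genes averaging 5 CPM or more, the log2 CPM of Dusp16 was most like that of Peli1 (Pearson r = 0.996), Trib1 (0.993) and Kdm5c (0.993), and within genotypes r stayed at 0.98 to 0.99. For Mapkapk2 the most similar genes were Ccl3 (r = 0.985), Cflar (0.984) and Il4i1 (0.98), with 0.83 to 0.87 within genotypes. These are descriptions over libraries that share their preparation and normalization, chosen as the highest of many, and carry no p-value.

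Other genes of the same circuit were counted from lists of its parts. Among 18 tested MAP3K genes and TPL2 partners edgeR called 0, DESeq2 3 and voom 0, unadjusted p-values lay under 0.05 for 6, and the median log2 fold change was 0.01. Among 15 tested MAP2K and MAPK genes edgeR called 0, DESeq2 2 and voom 0, unadjusted p-values lay under 0.05 for 3, and the median was 0. Mapk3, which encodes ERK1 and was the most abundant of them, averaged 428 ± 37.6 CPM in Sept2C111A and 397 ± 7.95 CPM in wild type (SD, n = 4 each; edgeR adjusted p = 0.36). Of 9 other MAPK-activated kinases 1 was higher and 0 were lower. It was Mknk2, which encodes a kinase of the cap-binding factor eIF4E, at 139 ± 5.64 CPM in Sept2C111A and 108 ± 2.78 CPM in wild type (SD, n = 4 each; log2 fold change 0.36, edgeR adjusted p = 0.0043).

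The 10 genes listed as ERK feedback had a median log2 fold change of -0.26, with 9 negative, 2 called lower and 0 higher. Over all tested genes 48.2% were negative and 3.03% were called lower. Unadjusted edgeR p-values lay under 0.05 for 3 of the 10, and ERK activity was not measured. Etv5, an ETS transcription factor gene, averaged 27.1 ± 2.31 CPM in Sept2C111A and 39.5 ± 0.846 CPM in wild type (SD, n = 4 each; log2 fold change -0.54, edgeR adjusted p = 0.0017). Spred2, which encodes an inhibitor of RAS signalling, averaged 22.1 ± 2.99 CPM in Sept2C111A and 29.4 ± 0.938 CPM in wild type (log2 fold change -0.41, edgeR adjusted p = 0.029), and its call ended without Sept2C111A library 2 or any 1 wild-type library (edgeR adjusted p 0.065 to 0.091). Dusp6, a gene of the same feedback, was not called. Of 19 immediate early genes 2 were lower and 0 higher, with a median of -0.11. They were Maff, a small MAF transcription factor gene (log2 fold change -0.63, edgeR adjusted p = 0.0011), and Egr2, a zinc finger transcription factor gene (log2 fold change -0.75, edgeR adjusted p = 0.023). The call of Egr2 ended without Sept2C111A library 2 or wild-type library 1 or 3 (edgeR adjusted p 0.054 to 0.077), and without Sept2C111A libraries 2 and 3 together the adjusted p was 0.11.

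On the side of mRNA decay, edgeR called 0, DESeq2 2 and voom 0 of 25 genes of deadenylation and decapping, unadjusted p-values lay under 0.05 for 4, and the median log2 fold change was 0.02. Cnot1, the scaffold of the CCR4-NOT complex that tristetraprolin recruits, averaged 102 ± 19.1 CPM in Sept2C111A and 104 ± 6.53 CPM in wild type (SD, n = 4 each). Of 16 other RNA-binding regulators of cytokine mRNA 1 was lower and 0 higher. It was Zc3h12c, a relative of the endonuclease gene for Regnase-1, at 30.1 ± 3.98 CPM in Sept2C111A and 41.8 ± 2.21 CPM in wild type (log2 fold change -0.48, edgeR adjusted p = 0.016), and its adjusted p was 0.058 and 0.052 without wild-type library 1 or 3.

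Of 22 tested mRNAs known as targets of tristetraprolin, 10 were lower and 0 higher, with 20 negative and a median of -0.33. Over all tested genes 3.03% were called lower and 48.2% were negative. The list holds Dusp1 and Zfp36 and cytokine genes whose fall was known from an earlier look at these libraries, so its direction is no independent evidence. Tnf averaged 284 ± 36.1 CPM in Sept2C111A and 502 ± 13.3 CPM in wild type (log2 fold change -0.82, edgeR adjusted p = 0.00057). Socs3 averaged 40.3 ± 9.34 CPM in Sept2C111A and 90.7 ± 4.35 CPM in wild type (log2 fold change -1.17, edgeR adjusted p = 0.0011), and Cxcl2 129 ± 12.5 CPM in Sept2C111A and 197 ± 9.51 CPM in wild type (log2 fold change -0.62, edgeR adjusted p = 0.0012). The change in level of Tnf stood beside log2 fold changes of -0.09 for Zfp36, 0.13 for Zfp36l1 and -0.23 for Mapkapk2. mRNA half-lives, protein levels and phosphorylation were not measured here.

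**Figure D5:**
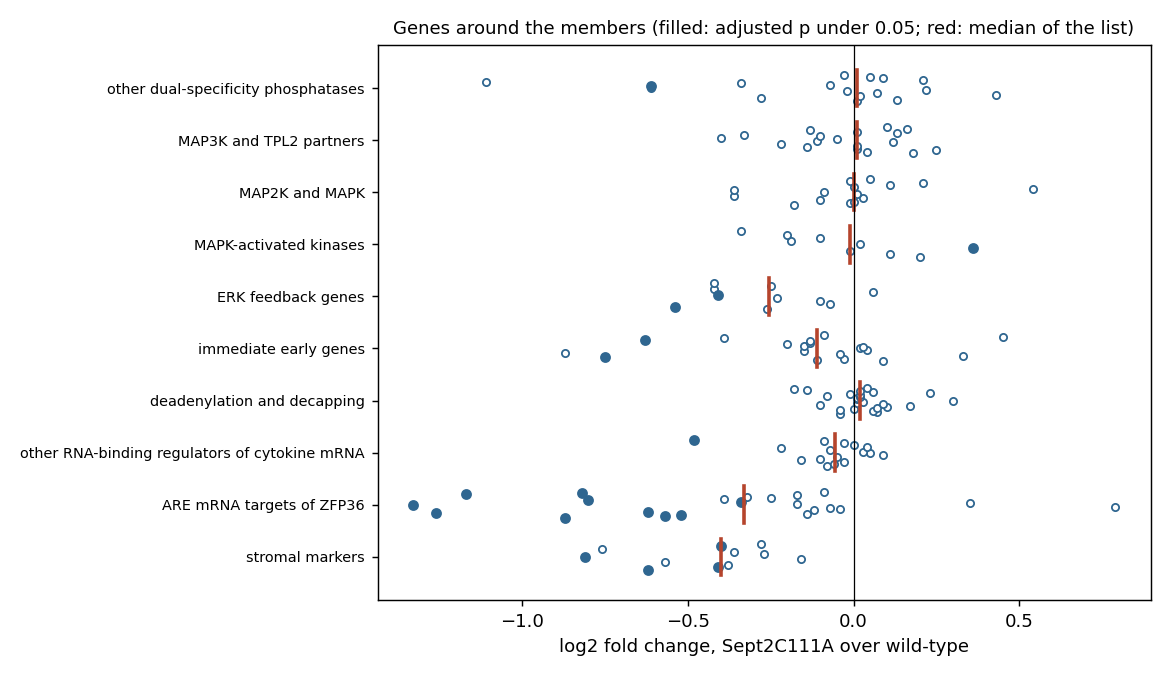
Log2 fold change of Sept2C111A over wild type for the tested genes of 9 circuit lists and of the stromal markers, with a point per gene, filled where called by edgeR, and a bar at the median of the list. The median is -0.33 for tristetraprolin targets, -0.26 for ERK feedback genes and -0.40 for stromal markers, and lies between -0.11 and 0.02 for the other circuit lists drawn.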

How the data were processed

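Messenger RNA was enriched on oligo(dT) beads per the labels' protocols. Each library has its own deposited table of expected counts, listed by gene symbol, in which reads that match several genes are shared out. Bowtie2, RSEM 1.3.1, DESeq2 1.4.5 and the build mm10 are named without roles per the submitters' processing notes. The sources used here give neither annotation nor strandedness.

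Expected counts were rounded, filtered with filterByExpr (minimum count 10), scaled by TMM and fitted in edgeR 4.0.16 (R 4.3.3) with genotype alone. The two-sided quasi-likelihood test was adjusted by Benjamini-Hochberg over 12462 genes, and an SE is the size of the log2 fold change over the root of F. Single genes were also given an exact permutation test over libraries. Pairs of libraries had a mean chi-square per gene of at least 3.87, where sampling noise gives 1. Promoters came from RefSeq (9 of the 10 genes were searched) and 3′ untranslated regions from GENCODE transcripts of GRCm38. Both searches left out Map3k8. Other tools were limma 3.58.1 (voom) and DESeq2 1.42.0.

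The 10 genes and all lists were chosen with earlier results of these data known. Named were the 10 genes, the called genes of other lists (at most 3) or else the most abundant one, the 3 genes most like each called gene, and Septin2. Uncalled phosphatases, Zfp36l2, Mapkapk3, Ergic1 and the ratios were named after their values were seen. Alternatives covered size factors, the filter, DESeq2, voom, a replicate block, the 20 most abundant genes and each library left out.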

Additional observations from a re-analysis of the deposited data

How the results depend on the processing

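Among the 10 genes, the number called lower was 2 in the fit reported, 1 with no filter on low counts, 1 without the 20 most abundant genes, 0 with a replicate block and 0 to 3 with 1 library left out; 0 were called higher in any. Genes called higher numbered 428 in the fit reported, 704 with DESeq2, 242 with the block, 282 without Sept2C111A libraries 2 and 3 and 162 to 1094 with 1 left out. Genes called lower numbered 377, then 746 with DESeq2, 210 without those libraries and 104 to 983 with 1 left out. With DESeq2, calls numbered 2 among other phosphatases, 3 among MAP3K genes and TPL2 partners (1 with upper-quartile factors), 2 among MAP2K and MAPK genes, 2 among MAPK-activated kinases, 4 among immediate early genes, 2 in deadenylation, 2 among RNA-binding regulators and 4 among typical MAPK phosphatases. With the block they numbered 0 among other phosphatases, 1 among ERK feedback genes and 0 among typical phosphatases, and without Sept2C111A libraries 2 and 3 they numbered 0, 1 and 1. With 1 library left out the ranges were 0 to 5 for other phosphatases, 0 to 2 for MAP3K genes, 0 to 1 for MAP2K and MAPK genes, 1 to 3 for ERK feedback, 1 to 5 for immediate early genes, 0 to 1 for deadenylation, 0 to 2 for RNA-binding regulators and 0 to 6 for typical phosphatases. The causes were not tested.

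Same-numbered libraries had deviations that correlated at -0.24 to 0.14, and the labels do not say whether a number pairs libraries, so the numbers were not treated as pairs; with the replicate block the edgeR adjusted p was 0.077 for Dusp16, 0.099 for Mapkapk2, 0.052 for Dusp5 and 0.057 for Spred2. The sign turned for Dusp6 (log2 fold change -0.09 to 0.06 with 1 library left out, no longer negative for 4 of the 8, and 0.14 with both Sept2C111A libraries 2 and 3 removed), for Zfp36l2 (-0.03 to 0.13 with 1 left out, below 0 only for Sept2C111A library 4) and for Dusp7 (0 with both removed). Counting error bears most on Dusp9 and Dusp10, which had the fewest reads of the typical phosphatases.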
